A study of Mus musculus with 2 samples.

Results

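The hypoxia response genes described here are 10 targets of the hypoxia-inducible factors (HIF): Vegfa, Bnip3, Egln1, Egln3, Ankrd37, Adm, P4ha1, Ndrg1, Ddit4 and Kdm3a. They were taken by symbol from the 17646 genes named in the deposited tables, after Ensembl identifiers had been paired with mouse symbols. Each of the 10 was found once, and all 10 passed the filter of at least 1 RPKM (reads normalised to gene length and to library size) in at least one library, which 12329 genes passed. RNA came from the heart of BALB/c mouse embryos at embryonic day 13.5, and there was 1 wild-type library and 1 library from SRSF10-/- embryos, labelled as knockouts of the splicing factor gene Srsf10. The number of embryos behind each library is not given in the labels, and the groups share strain, age and tissue. The design sets hearts of SRSF10-/- embryos beside hearts of wild-type embryos. Since each genotype has 1 library, differences were measured without replicates and carry no significance test. Intervals are exact 95% intervals that cover counting error only, and sequencing reads that carry no molecular identifier can be copies of 1 molecule. The wild-type library held 39.61 M reads and the knockout library 38.89 M. Srsf10 had 5245 and 212 reads, 24.3-fold lower (21.2 to 28) but not absent, and the reads left covered 86.17% of its listed length against 90.04% in wild-type heart. No member lies on its chromosome, 4. The Y-linked genes Ddx3y, Eif2s3y, Kdm5d and Uty summed to 2943 reads in wild-type heart and 7 in knockout heart, so sex and genotype cannot be told apart for any value given here.

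In cells with enough oxygen, prolyl hydroxylases of the Egln family modify the HIF alpha subunits, which are then bound by the von Hippel-Lindau protein and degraded. When oxygen is short the alpha subunits escape this, pair with Arnt and switch on genes for blood vessel growth, glycolysis, mitochondrial turnover and the oxygen sensors themselves. The embryonic heart develops in a low-oxygen setting, and HIF signalling is needed for its vessels and muscle wall. HIF binds the hypoxia response element, whose core is A or G followed by CGTG.

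The core letters were searched in the 250 bases before each gene start in RefSeq's GRCm38.p6 promoter table, as ACGTG or GCGTG on both strands and with overlapping matches counted. The deposited tables were made on mm9, so these positions serve only to show the sequence. Of the 10 members, 9 had a start in the table. Each of the 9 held at least 1 match before at least 1 start, as did 41.5% of all 27025 RefSeq genes. For Vegfa the only matches lie before a start whose 250 bases begin inside an exon annotated by GENCODE. The only Kdm3a match lies past the first base of its window that GENCODE places in an exon. Counted by start, 9 of 12 member starts held a match (75%), against 38.6% of all 32851 starts. ACGTG was present before 16.6% of all starts and GCGTG before 28.2%. Among the 9178 starts whose 250 bases were at least 60% G or C the share with either core was 63.8%, and of the 6 member windows with such a G and C share 5 held a match. The 5 windows shown belong to the 3 members that were at least 1.2-fold lower in knockout heart (Ankrd37, Egln1 and Ddit4), the member with the highest ratio (P4ha1) and the most abundant member (Bnip3). Capitals mark the core letters on either strand, and each sequence runs 5′ to 3′ on the gene's strand in GRCm38.p6. The P4ha1 window is whole, and the others stop before the first base that GENCODE places in an exon, which leaves out the last 17 bases for Ankrd37, 70 for Egln1, 64 for Ddit4 and 13 for Bnip3.
Ankrd37, chr8:45999868-46000100, minus strand: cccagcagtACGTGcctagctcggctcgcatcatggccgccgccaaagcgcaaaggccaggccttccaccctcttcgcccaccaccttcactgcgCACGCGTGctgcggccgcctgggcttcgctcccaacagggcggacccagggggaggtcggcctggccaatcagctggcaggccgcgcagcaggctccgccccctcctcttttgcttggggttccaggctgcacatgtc
Egln1, chr8:124949325-124949504, minus strand: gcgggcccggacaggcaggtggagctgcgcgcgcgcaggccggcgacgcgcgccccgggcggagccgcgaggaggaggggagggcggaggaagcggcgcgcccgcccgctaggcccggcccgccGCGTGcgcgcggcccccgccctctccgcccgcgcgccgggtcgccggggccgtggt
Ddit4, chr10:59951835-59952020, minus strand: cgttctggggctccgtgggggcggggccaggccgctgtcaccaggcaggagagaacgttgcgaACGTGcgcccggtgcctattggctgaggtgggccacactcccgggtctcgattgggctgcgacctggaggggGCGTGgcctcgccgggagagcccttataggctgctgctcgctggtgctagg
P4ha1, chr10:59323046-59323295, plus strand: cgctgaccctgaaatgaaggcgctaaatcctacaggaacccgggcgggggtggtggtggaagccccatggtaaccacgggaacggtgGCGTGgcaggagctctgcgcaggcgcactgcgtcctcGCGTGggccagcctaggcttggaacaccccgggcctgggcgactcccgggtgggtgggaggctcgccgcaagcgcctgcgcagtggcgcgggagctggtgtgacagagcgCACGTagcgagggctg
Bnip3, chr7:138909520-138909756, minus strand: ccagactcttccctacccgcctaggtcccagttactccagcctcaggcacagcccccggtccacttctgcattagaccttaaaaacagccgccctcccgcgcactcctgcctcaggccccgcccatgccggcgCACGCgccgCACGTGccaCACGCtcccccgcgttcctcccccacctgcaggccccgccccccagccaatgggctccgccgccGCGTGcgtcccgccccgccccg

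The Bnip3 window held 5 matches, Ankrd37 4, P4ha1 3, and Egln1 and Ddit4 2 each, of which 1 in Ankrd37 and 1 in Egln1 lie in the bases left out. At least 3 matches were present before 3 of the 12 member starts (25%) and before 6.58% of all starts. Those 3 windows, of Bnip3, Ankrd37 and P4ha1, were 72.4%, 67.6% and 69.6% G or C, and the median over all starts was 52.4%. The share with at least 3 matches among starts as rich in G and C was not computed. In Bnip3 a pair of matches overlapped on opposite strands, and in Ankrd37 likewise. Members lower in knockout heart (Ankrd37), higher (P4ha1) and nearly level (Bnip3) all carried the core letters. Adm had 2 matches, Egln3 1, and Kdm3a 1 before one of its 3 starts. The Kdm3a match lies in the last 73 bases of its window, which the rule used for the windows shown would leave out. The first of the Vegfa starts had none, and the absence says only that these letters are not in that window. The other Vegfa start had 2, but its window begins at a base that GENCODE places in an exon. The rule used for the windows shown would leave out all 250 of its bases. A match is a description of the sequence and not a measured binding site.

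**Figure D1:**
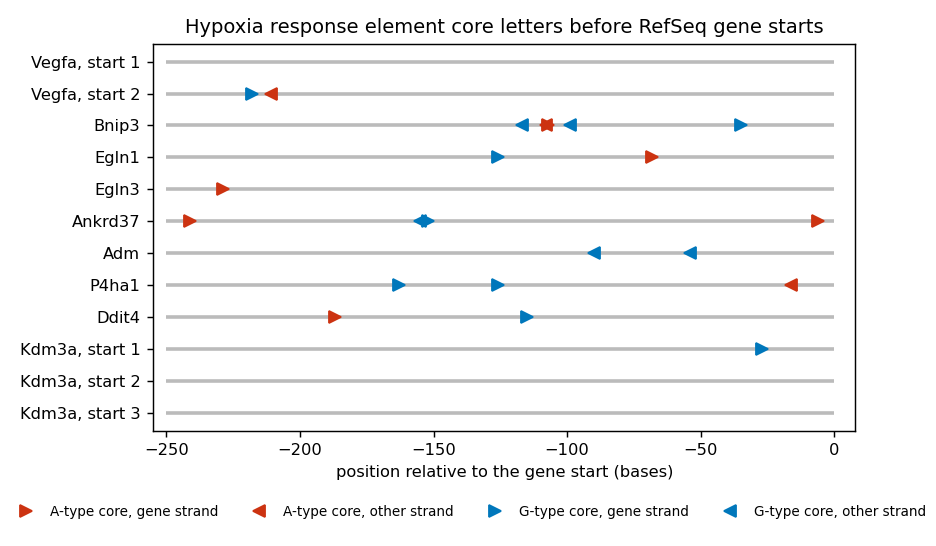
Positions of the hypoxia response element core letters (horizontal axis, bases before the gene start) for each RefSeq start of 9 members (rows). Red marks A-type and blue G-type cores, right-pointing marks the gene's strand and left-pointing marks the other strand; Bnip3 has 5 marks and the first Vegfa start has none.

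The members kept almost the same order of level in both hearts and no common direction between them. In a whole organ, fewer cells of a type and less RNA per cell cannot be told apart, for these genes and for those given further on. Wild-type levels ranged from 3.84 RPKM for Adm to 68.3 RPKM for Bnip3, and knockout levels from 3.77 RPKM for Ankrd37 to 66.4 RPKM for Bnip3. In both libraries the first 8 places were held, from the top, by Bnip3, Vegfa, Egln1, P4ha1, Kdm3a, Ddit4, Egln3 and Ndrg1. In the wild type Ankrd37 came 9th and Adm 10th, and in knockout heart this was the other way round. Counting intervals of neighbours in the order overlapped for Ndrg1 and Ankrd37 in wild-type heart and for Adm and Ankrd37 in knockout heart, and for no other neighbours.

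**Figure D2:**
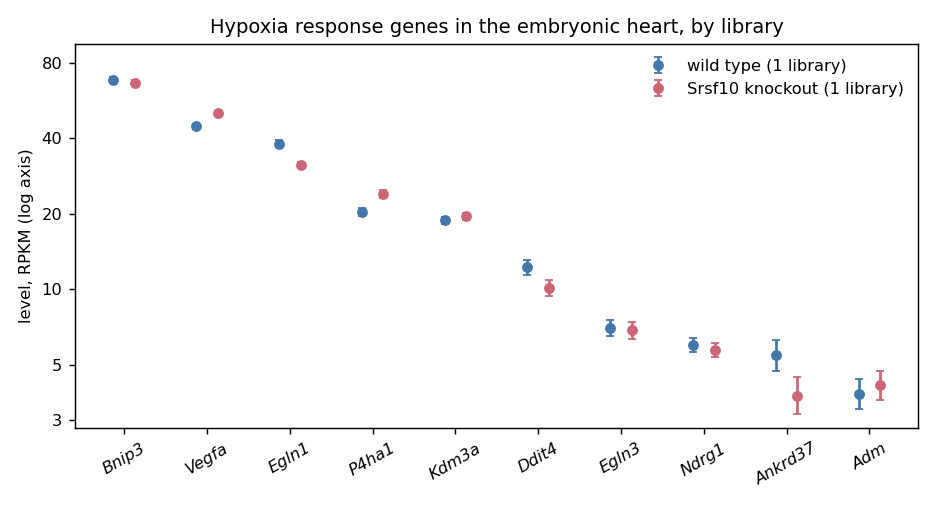
Level of each member (RPKM, log axis) in the wild-type library (blue) and the Srsf10 knockout library (red), with exact 95% counting intervals. Bnip3 is highest at 68.3 and 66.4 RPKM, and Ankrd37, at 5.47 and 3.77 RPKM, has the widest gap for its level.

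Differences are given as ratios of reads per library read, knockout over wild type. No member was at least 1.5-fold higher, against 3.54% of all 12329 genes, and none was at least 1.5-fold lower, against 3.01%. None was at least 1.2-fold higher, where the share of all genes was 13.8%. Ankrd37, Egln1 and Ddit4, 3 of the 10, were at least 1.2-fold lower, where the share of all genes was 13.5%. Egln1 and Ddit4 lay close to that limit, at 1.22-fold and 1.21-fold. Of the members 4 had a log2 ratio above 0 and 6 had one below, with a median of -0.04, and all genes had a median of -0.01 with quartiles of -0.16 and 0.15. Summed over the 10 members, reads were 26082 in wild-type heart and 25807 in knockout heart, a ratio of 1.01 (0.991 to 1.03).

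**Figure D3:**
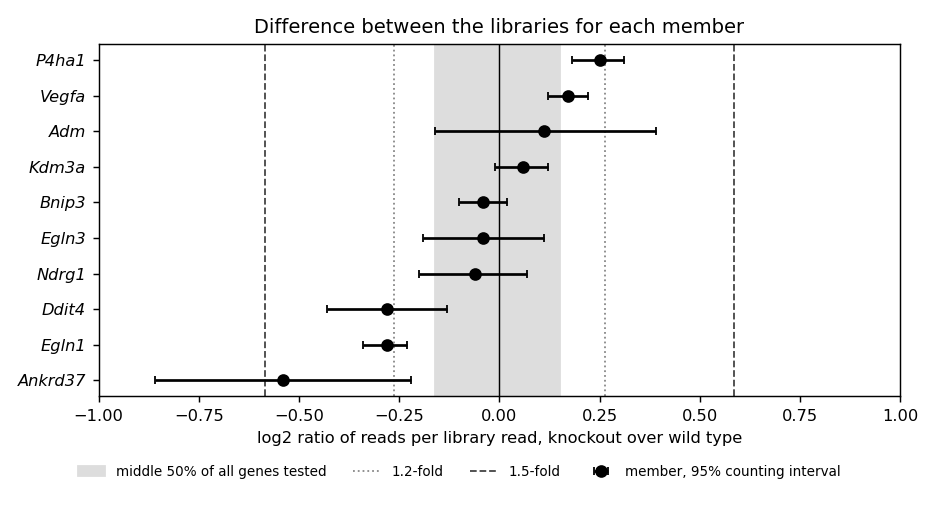
Log2 ratio of reads per library read, knockout over wild type, for each member (points) with its exact 95% counting interval (bars). The grey band is the middle 50% of all genes tested, from -0.16 to 0.15; Ankrd37 at -0.54, Egln1 and Ddit4 at -0.28, Vegfa at 0.17 and P4ha1 at 0.25 lie outside it.

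Of the oxygen sensors among the members, Egln1 was lower in knockout heart and Egln3 was nearly level. Egln1 (ENSMUSG00000031987, chromosome 8), the prolyl hydroxylase that sets HIF alpha stability in most tissues, had 5308 reads (38.1 RPKM) in wild-type heart and 4279 reads (31.3 RPKM) in knockout heart. It was 1.22-fold lower (1.17 to 1.27), with a log2 ratio of -0.28, and 12.0% of all genes had a lower ratio. Egln3 (ENSMUSG00000035105, chromosome 12), a prolyl hydroxylase strongly induced by hypoxia, had 742 reads (7.04 RPKM) and 710 reads (6.86 RPKM). Its ratio was 0.975 (0.878 to 1.08), an interval that holds 1. Egln2, the third enzyme of the family and not a member, went from 24.9 to 21.1 RPKM, 1.18-fold lower (1.11 to 1.26). Summed over the family the level was 70.0 RPKM in wild-type heart and 59.2 RPKM in knockout heart, and Egln1 made up 54.4% and 52.9% of it.

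The substrates and partners of these enzymes differed by at most 1.22-fold. Of 15 genes of the HIF machinery, none was at least 1.2-fold higher, beside 13.8% of all genes, and 2 were at least 1.2-fold lower, beside 13.5%, with a list median of -0.04. Hif1a, the alpha subunit present in most cells, had 12888 reads (68.9 RPKM) in wild-type heart and 10391 reads (56.6 RPKM) in knockout heart, 1.22-fold lower (1.19 to 1.25). Epas1, the alpha subunit prominent in endothelium, went from 13.7 to 12.1 RPKM, 1.13-fold lower (1.07 to 1.19). Hif3a, an alpha subunit with forms that restrain the others, had 30.1 and 29.3 RPKM. The partner subunit Arnt had 18.0 and 19.2 RPKM, and its relative Arnt2, at 5.14 and 4.26 RPKM, was 1.21-fold lower (1.11 to 1.31). In the GRCm38 annotation 2 genes overlap the exons of Hif1a, and Arnt2, Egln2, Elob and Ep300 are each overlapped by 1 gene. Of the 31-base words of Hif1a 8.44% are shared. The effect of this on their counts was not tested. Vhl, which recognises hydroxylated alpha subunits, was level at 965 and 954 reads. Its ligase partners Cul2, Eloc, Elob and Rbx1 had log2 ratios of -0.10, -0.06, 0.09 and 0.09, and 47.7% of the 31-base words of the longest Elob transcript are shared with other genes. Hif1an, the asparagine hydroxylase that blunts HIF activity, had a log2 ratio of -0.08. The coactivators Crebbp and Ep300 were 1.14-fold (1.09 to 1.19) and 1.12-fold (1.08 to 1.16) higher, and Cited2, which competes with HIF for them, had 27.8 and 28.0 RPKM.

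Both secreted members had ratios above 1, with counting error covering the difference for one of them. Vegfa (ENSMUSG00000023951, chromosome 17), the main growth factor for blood vessels, had 6229 reads (44.6 RPKM) in wild-type heart and 6890 reads (50.2 RPKM) in knockout heart. It was 1.13-fold higher (1.09 to 1.17), with a log2 ratio of 0.17, and 44.9% of all genes had a larger difference in either direction. Adm (ENSMUSG00000030790, chromosome 7), the vasodilator peptide adrenomedullin, had 211 reads (3.84 RPKM) and 224 reads (4.15 RPKM). Its ratio was 1.08 (0.892 to 1.31), so that at this depth a difference between the libraries was not detectable. Reads were summed over each gene, so the splice forms of Vegfa are not told apart.

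Of the other ligands of the VEGF family, 3 were lower in knockout heart and Vegfd was nearly level. Vegfb, which acts mainly through Flt1, had 5099 reads (100 RPKM) in wild-type heart and 3480 reads (69.9 RPKM) in knockout heart, 1.44-fold lower (1.38 to 1.5). Pgf, placental growth factor, had 272 and 167 reads and was 1.60-fold lower (1.31 to 1.95). Vegfc was 1.12-fold lower (1.02 to 1.24) and Vegfd had 315 reads in each library. Vegfa thus made up 27.1% of the summed RPKM of the 5 ligands in wild-type heart and 36.8% in knockout heart, while Vegfb went from 61.1% to 51.1%. The VEGF receptors Kdr and Flt1 were 1.05-fold and 1.07-fold higher, and Flt4, the receptor of lymphatic endothelium, was 1.30-fold lower (1.21 to 1.39). The co-receptors Nrp1 and Nrp2 had log2 ratios of 0.09 and -0.28. On the adrenomedullin side, the receptor Calcrl went from 12.9 to 16.3 RPKM, 1.26-fold higher (1.2 to 1.33). The proteins that give Calcrl its ligand choice, Ramp1, Ramp2 and Ramp3, had log2 ratios of 0.01, -0.04 and 0.21, and the interval of each held a ratio of 1. Of the words of Ramp2 74.1% are shared with other genes, and the exons of Nrp1, Ramp2 and Ramp3 are each overlapped by 1 gene. Ackr3, a scavenging receptor for adrenomedullin, was 1.11-fold higher (1.05 to 1.17). Over these 14 genes 1 was at least 1.2-fold higher, beside 13.8% of all genes, and 4 were at least 1.2-fold lower, beside 13.5%, with a list median of 0.02.

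The members that act in mitochondrial removal, growth control and stress differed little, apart from Ddit4. Bnip3 (ENSMUSG00000078566, chromosome 7), which marks mitochondria for removal by autophagy, had 4751 reads (68.3 RPKM) in wild-type heart and 4535 reads (66.4 RPKM) in knockout heart. Its ratio was 0.972 (0.933 to 1.01). Of the 31-base words of its longest transcript 74.8% also occur in other annotated genes, the overlapping Gm45507 included, while reads covered 97.89% and 99.37% of its listed length. The effect of the shared words on its count was not tested. Gm45507, annotated on the opposite strand, overlaps 22.3% of its exon bases. Its relative Bnip3l, with a role in the same process and named after its values were seen, had 45.4 and 45.7 RPKM, and 27.4% of its words are shared.

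Ddit4 (ENSMUSG00000020108, chromosome 10), an inhibitor of the mTOR growth kinase that hypoxia and other stresses induce, had 818 reads (12.3 RPKM) in wild-type heart and 663 reads (10.1 RPKM) in knockout heart. It was 1.21-fold lower (1.09 to 1.34), with a log2 ratio of -0.28. Ndrg1 (ENSMUSG00000005125, chromosome 15), a stress-responsive protein linked to growth arrest and differentiation, had 964 reads (6.01 RPKM) and 905 reads (5.75 RPKM). Its ratio was 0.956 (0.872 to 1.05), and the antisense genes Gm2895 and Gm17035 overlap 2.08% and 6.35% of its exon bases.

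P4ha1 and Kdm3a encode oxygen-dependent enzymes of the same broad class as the Egln proteins, the 2-oxoglutarate oxygenases. P4ha1 (ENSMUSG00000019916, chromosome 10), the catalytic subunit of a collagen prolyl hydroxylase, had 3244 reads (20.3 RPKM) in wild-type heart and 3774 reads (24.0 RPKM) in knockout heart. It was 1.19-fold higher (1.13 to 1.24), the highest ratio among the 10, and 84.9% of all genes had a lower one. Among genes named after their values were seen, its relative P4ha2 had 14.8 and 14.1 RPKM, with a ratio of 0.949 (0.887 to 1.01), so P4ha1 made up 57.7% of the pair in wild-type heart and 63.0% in knockout heart. P4hb, the partner subunit of both, was 1.10-fold lower (1.08 to 1.13). Kdm3a (ENSMUSG00000053470, chromosome 6), a demethylase of histone H3 lysine 9, had 3614 reads (18.8 RPKM) and 3691 reads (19.6 RPKM). Its ratio was 1.04 (0.993 to 1.09).

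Ankrd37 differed most among the members. Ankrd37 (ENSMUSG00000050914, chromosome 8) encodes a small ankyrin repeat protein and is a HIF target known from human cells. Its count was 201 reads (5.47 RPKM) in wild-type heart and 136 reads (3.77 RPKM) in knockout heart, a log2 ratio of -0.54 (-0.86 to -0.22). Of all genes, 3.50% had a lower ratio and 7.74% a larger difference in either direction. In the GRCm38 annotation its exons overlap those of 2 genes on the opposite strand, Lrp2bp over 22.7% of its exon bases and Ufsp2 over 3.70%. Lrp2bp had 88 and 53 reads and was 1.63-fold lower (1.15 to 2.34), whereas Ufsp2 had 1185 and 1470 reads and was 1.26-fold higher (1.17 to 1.37). The use of strand in counting is not given in the sources used here, so reads of Ankrd37 and of these partners cannot be told apart where the exons overlap.

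The deposited coverage, the share of a gene's listed length covered by reads, set Ndrg1 apart from the other members. For the other 9 it lay between 92.09% and 98.38% in wild-type heart and between 93.49% and 99.37% in knockout heart. Ndrg1 was covered over 57.42% of its 4049 bases in wild-type heart and 49.25% in knockout heart, with read numbers of 964 and 905. Among 447 genes whose wild-type reads and length were within 20% of those of Ndrg1, the median coverage was 96.01% and 95.48%, and 3.80% and 3.13% of them were covered less than Ndrg1. The difference in the coverage of Ndrg1, knockout minus wild type, was -8.17 points, and 4.91% of all genes dropped by at least 8 points. The tables do not show which part of Ndrg1 was uncovered. Coverage of Vegfa was 97.62% and 95.32%, and that of Ankrd37 was 98.38% in both libraries.

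Of 24 further HIF targets, in glucose metabolism, 3 were at least 1.2-fold higher, beside 13.8% of all genes, and 2 at least 1.2-fold lower, beside 13.5%, with a median of -0.04. Aldoa, a glycolytic aldolase and the most abundant of them, had 1036 and 1016 RPKM, and 34.2% of its words are shared with other genes. Eno1, the enolase gene with the largest difference, had 178 and 287 RPKM, but 77.2% of its words are shared. The other genes past 1.2-fold are named after their values were seen. Slc2a1, a glucose transporter, was 1.24-fold higher (1.21 to 1.26), and it lies on chromosome 4, as do Eno1 and Srsf10. Gapdh, a glycolytic dehydrogenase, shares 31.8% of its words and was 1.23-fold higher (1.18 to 1.27). Reads covered 69.3% of the listed length of Gapdh in wild-type heart and 53.87% in knockout heart, and 1 gene overlaps its exons. Pgm2 was 1.42-fold lower (1.27 to 1.59), and Tpi1, triosephosphate isomerase, was 1.32-fold lower (1.3 to 1.34), with 18.5% of its words shared. The part of the shared chromosome in these values was not tested.

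**Figure D4:**
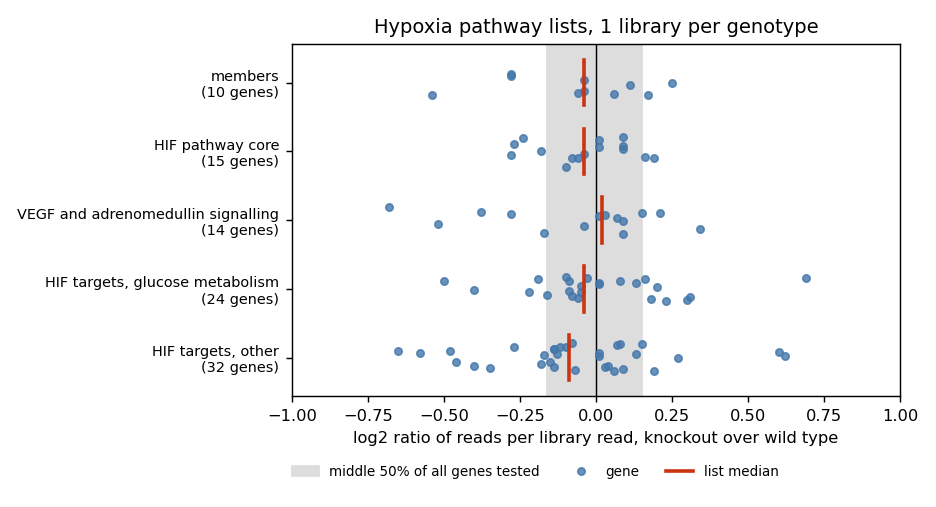
Log2 ratio of reads per library read, knockout over wild type, for each measured gene (blue points) of the members and 4 further lists, with list medians in red. The medians lie between -0.09 and 0.02, inside the grey band from -0.16 to 0.15 that holds the middle 50% of all genes tested.

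Marker lists of the cell types a heart sample can hold differed between the libraries. Cardiomyocyte markers (15 of 15 measured) summed to 22701 RPKM in wild-type heart and 20442 RPKM in knockout heart, with a median log2 ratio of -0.08. The ratio of their summed reads per library read was 0.976 (0.974 to 0.978). Endothelial markers (12 of 12) summed to 435 and 425 RPKM. Fibroblast and cushion mesenchyme markers (10 of 10) summed to 1280 and 988 RPKM, with 6 at least 1.2-fold lower and none higher, where the shares of all genes were 13.5% and 13.8%. Epicardial markers (8 of 8) summed to 188 and 209 RPKM. Erythroid markers (9 of 12 measured) summed to 3789 and 3277 RPKM, with 4 of the 9 at least 1.2-fold lower and 1 higher. Macrophage and leukocyte markers (10 of 11) summed to 76.5 and 102 RPKM, with 9 at least 1.2-fold higher, none lower and a median log2 ratio of 0.41. Skeletal muscle markers (6 of 8) summed to 359 and 446 RPKM, with 3 higher and 1 lower at the same limit. Of the cardiomyocyte markers 1 was higher and 3 were lower at that limit, of the endothelial markers none and 1, and of the epicardial markers 3 and none. Of the measured skeletal muscle markers, Acta1 was the most abundant, at 219 and 255 RPKM. Tnni2 had the largest difference and went from 24.4 to 96.8 RPKM. The others of this list are named after their values were seen. Ckm went from 102 to 75.1 RPKM, and with Acta1 it made up most of the summed RPKM in both libraries. Myod1 (18 and 2 reads) and Myog (41 and 18 reads), under the RPKM filter, were 8.84-fold and 2.24-fold lower. None of the marker genes found in the tables had 0 reads in either library. The part of these differences in the members' values was not tested.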

How the data were processed

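The authors deposited 1 table per library with whole-number counts of uniquely mapped reads per Ensembl gene, per the file headers, and RPKM, scaled by the authors to the listed gene length and the library's total. The deposited coverage is a percent of the listed gene length; 1 value exceeds 100%. Per the submitters' processing notes, Bowtie 0.12.2 and the mm9 build were used; annotation and filters were not given in the sources used here. Genes listed for only one library count as 0 reads in the other, with a floor of 3 reads in ratios.

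Ratios of reads per library read carry exact conditional (Clopper-Pearson) 95% intervals, and levels exact Poisson intervals (scipy 1.17.1, Python 3.11.15). Symbols were found for 17196 of 17646 identifiers. No model was fitted, since single libraries give no estimate of spread. The ratio and interval were tested on simulated Poisson counts. These hold counting error only, so the test cannot speak to spread between hearts or library preparations. The members and lists were chosen with earlier results of these data known. Named genes are the members, the lists of HIF machinery and VEGF or adrenomedullin signalling, and, of each further list, the most abundant gene and the gene with the largest difference (not printed for most marker lists). Others are marked. Chromosomes, overlaps and shared 31-base words come from GENCODE M21 (GRCm38), and promoters from RefSeq (GRCm38.p6). Alternatives were pseudocounts on RPKM, TMM scaling (edgeR 4.0.16), median-of-ratios scaling (DESeq2 1.42.0), upper quartile scaling, scaling without mitochondrial genes, and RPKM filters. An alternative added after seeing the data left out members with shared or overlapping sequence.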

Additional observations from a re-analysis of the deposited data

How the results depend on the processing

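All 70 values of single members under 7 alternatives of pseudocount and scaling lay within the member's counting interval, with no change of sign. The median of the members lay between -0.04 and -0.02 under these. Without Bnip3, Ankrd37 and Ndrg1, whose sequence is shared or overlaps other genes, the median of the 7 left was 0.06, so its sign turned. The number at least 1.2-fold lower was 3, fell to 2 without those 3 members, with a pseudocount of 1, with upper quartile scaling and with scaling to reads outside the mitochondrial genes, and was 0 with a pseudocount of 5. The number at least 1.2-fold higher was 0, and 1 (P4ha1) with scaling to reads outside the mitochondrial genes. The shares of all genes depend on the filter. With an RPKM of at least 5, 8.97% were at least 1.2-fold higher, 11.3% at least 1.2-fold lower, 1.18% at least 1.5-fold higher and 1.54% at least 1.5-fold lower. With no filter these were 21.0%, 18.2%, 10.3% and 7.75%. No scaling moved the median of all genes outside -0.01 to 0.01. Counting error limits Ankrd37 and Adm most, at 136 to 224 reads. No paired analysis was possible because each genotype has 1 library, and no replicate could be left out.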

Other observations

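HIF targets outside glucose metabolism, 32 of 33 of them measured, reached larger differences than the members at both ends, with log2 ratios from -0.65 to 0.62 against -0.54 to 0.25. They are the longer list, and 10 of 32 were past 1.2-fold against 3 of the 10 members. Their median log2 ratio was -0.09, with 3 genes at least 1.2-fold higher and 7 at least 1.2-fold lower, where the shares of all genes were 13.8% and 13.5%. Fam162a, a mitochondrial protein and the most abundant, had 225 RPKM in wild-type heart and 205 RPKM in knockout heart. Cxcr4, a chemokine receptor, had 386 and 242 reads and the largest difference, 1.57-fold lower (1.33 to 1.85).

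Some genes were picked from this list after their values were seen. Hmox1, the heme-degrading oxygenase, had 918 and 1385 reads, 1.54-fold higher (1.41 to 1.67). Rora, a nuclear receptor, had 640 and 949 reads, 1.51-fold higher (1.36 to 1.67). The iron uptake receptor Tfrc went from 22.6 to 17.1 RPKM, 1.32-fold lower (1.26 to 1.38). Erythroid markers summed to 3789 and 3277 RPKM without a common direction: Hba-a1 and Hba-a2, with 71.4% and 91.0% of their words shared, were 1.71-fold and 1.77-fold lower, whereas Epb42 was 1.4-fold and Hbb-bh1 1.16-fold higher, and Gata1 and Rhag, under the RPKM filter, were 2.46-fold and 1.72-fold higher. Lox, which crosslinks collagen and elastin, was 1.38-fold lower (1.30 to 1.46), beside fibroblast and cushion mesenchyme markers at 1280 and 988 RPKM. The part of these markers in the values was not tested.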
